A study of Mus musculus with 6 samples.

Results

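The ribosomal protein pseudogenes of the mouse were followed in LβT2 cells, an immortalized line of pituitary gonadotropes. They were taken as every row of the deposited gene counts whose symbol begins with Rpl or Rps and ends in -ps with an optional number, which gave 273 of 47069 genes. All 6 libraries came from cells at passage 14 that were treated with 2 nM gonadotropin-releasing hormone (GnRH) for 40 min. The 3 fresh libraries came from cells lysed at once in guanidium thiocyanate buffer, and the 3 RNA-Best libraries from cells kept for at least 4 days at 4°C in RNA-Best, a proprietary reagent that preserves RNA, before the same lysis. Whether replicate libraries stem from different cultures is not stated in the sources, and p-values measure only the spread between them, which may be technical. The fresh libraries held 14477304 to 47438746 counts and the RNA-Best libraries 4909418 to 11999363, so that every fresh library was deeper. The gonadotrope markers Cga, Lhb, Gnrhr and Nr5a1 together had 9678 to 112878 counts per library, whereas Gh, Prl, Pomc and Tshb, which mark other pituitary cells, together had 6 to 47.

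Ribosomal protein genes encode the proteins of the large subunit (Rpl) and of the small subunit (Rps) of the ribosome, and their mRNAs are among the most abundant in growing cells. Most ribosomal protein pseudogenes are processed: an mRNA was copied into DNA and inserted elsewhere in the genome, so that the copy has no introns and usually no promoter of its own. A young copy still has nearly the sequence of the mRNA it came from. A short read from the parent mRNA can therefore fit the copy as well, and the count of a pseudogene does not by itself show that the pseudogene was transcribed.

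The annotation types of the 273 members were processed pseudogene for 261, transcribed processed pseudogene for 6 and protein coding for 6. They lay on 20 chromosomes, with 35 on the X chromosome, and 267 had a single exon. Their exonic length was 151 to 1323 bases with a median of 456. By their symbols they were copies of 60 parent genes, 38 of the large and 22 of the small subunit, with 170 and 103 members. The largest families were those of Rps12 with 22 members and of Rpl31 with 21.

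Of the 273 members, 33 had 0 counts in every library, which by counting error alone allows up to 0.0632 CPM (counts scaled to a common library total) at the greatest depth and up to 0.611 CPM at the lowest. A further 103 had counts but did not pass the filter on low counts, and 137 were tested. The members with at least 1 count numbered 208 ± 14 in fresh and 177 ± 14.2 in RNA-Best libraries (SD, n = 3 each). After each library was thinned to the same total of 4909268 counts, they numbered 178.3 ± 1.53 and 174.7 ± 5.13 (SD, n = 3 each), and the ranges of 177 to 180 and 169 to 179 overlapped.

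Of the 273 members, 270 aligned to an annotated transcript of the parent gene, 55 of them with an identity of at least 99% and 14 of them with 100%. Each member was also split into all of its overlapping windows of the read length, and these were looked up in the transcripts of every other gene of the annotation. In 104 members no window occurred elsewhere, and in 31 members every window did. The stretches below are one read length of a member and of its parent, read 5′ to 3′ from the transcripts of GENCODE M21 on GRCm38 and lying within the coding sequence of the parent. Capitals mark the bases at which member and parent differ. They show what a read can and cannot tell apart, from an identical copy to one with 8 differences in a read length.

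The first is Rps16-ps2, at chr5:129128417-129128517 on the minus strand, which is identical to Rps16 over its whole length.
Rps16-ps2: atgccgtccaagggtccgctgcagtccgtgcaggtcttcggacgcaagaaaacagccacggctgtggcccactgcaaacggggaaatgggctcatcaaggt
Rpl39-ps, at chr15:102635039-102635139 on the plus strand, is a copy of Rpl39, whose protein lines the exit tunnel of the ribosome. It differs from the parent by 1 base, T96C, counted from the A of the parent's start codon. At a length of 151 bases every read-length window holds that base, so that none occurred elsewhere although the identity is 99.3%.
Rpl39-ps: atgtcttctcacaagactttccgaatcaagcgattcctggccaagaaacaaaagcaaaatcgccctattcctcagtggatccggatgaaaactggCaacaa
Rpl39: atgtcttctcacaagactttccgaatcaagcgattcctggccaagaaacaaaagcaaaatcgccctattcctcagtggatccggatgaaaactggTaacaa
Rpl14-ps1, at chr7:45325287-45325387 on the plus strand, is a copy of Rpl14, which encodes a protein of the large subunit, and holds C420T and A423G in this stretch.
Rpl14-ps1: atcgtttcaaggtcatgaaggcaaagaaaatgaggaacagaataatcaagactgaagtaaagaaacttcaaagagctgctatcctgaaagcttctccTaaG
Rpl14: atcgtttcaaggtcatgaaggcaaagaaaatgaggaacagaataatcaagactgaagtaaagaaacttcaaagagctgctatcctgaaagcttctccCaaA
Rpl35a-ps7, at chr6:47815411-47815511 on the minus strand, has 7 differences from Rpl35a in the stretch.
Rpl35a-ps7: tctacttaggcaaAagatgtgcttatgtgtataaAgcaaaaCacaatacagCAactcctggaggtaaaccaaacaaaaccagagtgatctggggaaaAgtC
Rpl35a: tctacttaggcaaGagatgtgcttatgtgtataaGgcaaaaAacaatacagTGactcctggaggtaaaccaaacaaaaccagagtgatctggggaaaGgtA
Rpl13a-ps1, at chr19:50030352-50030452 on the minus strand, has 8 differences from Rpl13a.
Rpl13a-ps1: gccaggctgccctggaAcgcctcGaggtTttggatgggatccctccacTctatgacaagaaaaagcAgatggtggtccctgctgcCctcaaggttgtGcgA
Rpl13a: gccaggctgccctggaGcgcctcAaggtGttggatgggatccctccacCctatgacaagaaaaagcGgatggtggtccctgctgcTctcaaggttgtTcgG

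Members of higher identity to the parent had higher levels. Levels were compared between genes per length, as mean CPM over the 6 libraries per kb of exonic sequence. The median was 0.00202 CPM per kb in the 51 members with an identity under 90%, of which 24 were at 0 in every library and 2 were tested. It was 0.184 in the 60 members from 90% to under 95%, 1.25 in the 65 from 95% to under 98% and 19.0 in the 39 from 98% to under 99%, all of which were tested. It was 33.1 in the 41 members from 99% to under 100% and 108 in the 14 at 100%. Across 270 members the Spearman correlation of level with identity was 0.83, as a description only, since the members share libraries and many share reads. The correlation with the level of the parent was 0.07 (n = 272).

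**Figure D1:**
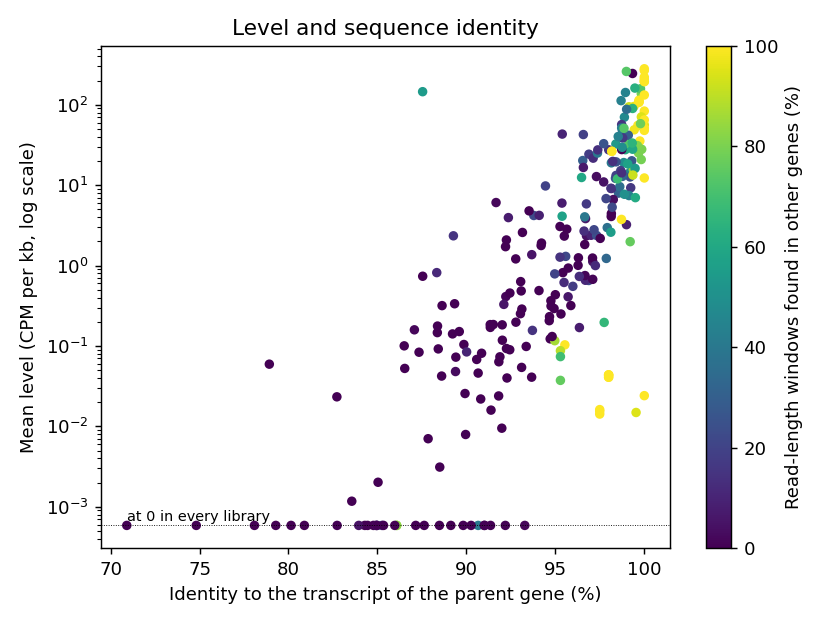
Mean level of each aligned member over the 6 libraries, in CPM per kb on a log axis, against its identity to the parent transcript in percent, coloured by the percent of its read-length windows found in other genes. Members at 0 in every library are drawn on the dotted line, and the 14 members at 100% identity reach 280 CPM per kb.

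Single members departed from this order. Rpl36a-ps3, at chr6:136488807-136489127, had an identity of 87.5% to Rpl36a and 145 CPM per kb. The gene that shares most of its windows was Rpl36al, a relative of Rpl36a that was chosen after the values were seen. Rpl18-ps1, at chr1:60900898-60901422, had 16.7 CPM per kb and did not align to Rpl18, and it was also chosen after the values were seen. On the low side were Rps23-ps1 and Rps23-ps2, copies of the gene for a protein at the decoding centre. They had identities of 100% and 99.5% to Rps23 and no more than 1.25 counts in any library. They were also the 2 members of which an exon overlaps an exon of a gene on the other strand, and the part of that overlap in their counts was not tested.

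A run of 13 Rps12 pseudogenes lies within 2.70 Mb of the X chromosome, at chrX:123285044-125987364. In 9 of them every window occurred elsewhere, with up to 16 other genes sharing a window. None of the 13 was tested, and no value among them exceeded 2.65 counts. Their counts summed to 14.6, 12.8 and 5.45 in the fresh and to 1, 0.9 and 6.17 in the RNA-Best libraries. Rps12-ps11, Rps12-ps12 and Rps12-ps15 have the same sequence of 399 bases and had the same value in each of the 6 libraries. Rps12-ps13 and Rps12-ps14, which share that sequence, equalled each other in all 6 but differed from the former in 2, by at most 0.15 counts or 47.6%.

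Parts of counts were the rule among the members. A value was taken to hold a part of a count, as a read divided between genes gives, where it lay more than 0.001 from a whole number. This was so for 71.6% of the 1638 values of the members, against 12.6% of the values of all genes. Among values of at least 10 counts the share was 96.7% in the members, 89.6% in the 90 cytosolic ribosomal protein genes, 76.8% in the 1019 other pseudogenes with -ps in the symbol and 26.6% in all genes. Of the members above 0 in a library, 92.5% ± 0.538 had a part of a count in fresh and 92.0% ± 1.501 in RNA-Best libraries (SD, n = 3 each), so that the groups overlapped. Among the 137 tested members, 119 had one in all 6 libraries and 0 had none, so that no tested member held whole counts throughout. The smallest values in the whole table were 0.10, 0.11, 0.12, 0.14, 0.17 and 0.20, which is within rounding 1 read divided by 10, 9, 8, 7, 6 and 5.

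Members with the same sequence had equal values in some cases and not in others. Rps19-ps1 and Rps19-ps2 lie at chr14:53213730-53214167 and chr14:52902793-52903230 and are the same over 438 bases. Their counts were equal in 4 of 6 libraries, at 211.12, 82.53, 41.47 and 119.12, and differed by at most 0.207% in the other 2. Rpl35a-ps3 and Rpl35a-ps4, on chromosomes 17 and 2, are the same over 333 bases and differed by at most 0.714% in any library. Rpl35a-ps2 and Rpl35a-ps6, on chromosomes 1 and 5, share that sequence too, and the largest difference of a pair with either of them was 2.51% to 7.08%. Such members are not independent of each other, and each count below is of annotated members rather than of separate transcripts.

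The sum over all 273 members was lower in RNA-Best. It was 3145, 3144 and 3200 CPM in the fresh libraries, or 3163 ± 32.0 (SD, n = 3). In the RNA-Best libraries it was 2575 ± 39.2 CPM (SD, n = 3), with a range from 2535 to 2613. Every RNA-Best library lay below every fresh one, and the ratio of the means was 0.814. In bulk libraries, fewer cells with a transcript and less of it per cell cannot be told apart. The sum over the 90 cytosolic ribosomal protein genes was 29483 ± 564 CPM in fresh and 23834 ± 343 CPM in RNA-Best libraries (SD, n = 3 each), a ratio of 0.808. The sum of the pseudogenes, which are not part of that list, equalled 10.7% ± 0.118 of it in fresh and 10.8% ± 0.0180 in RNA-Best libraries (SD, n = 3 each), and these ranges overlapped. The 170 large subunit members summed to 2112 ± 22.3 CPM in fresh and 1724 ± 29.3 CPM in RNA-Best, and the 103 small subunit members to 1051 ± 12.2 and 850.04 ± 11.2 CPM (SD, n = 3 each), with no overlap of the libraries in either.

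**Figure D2:**
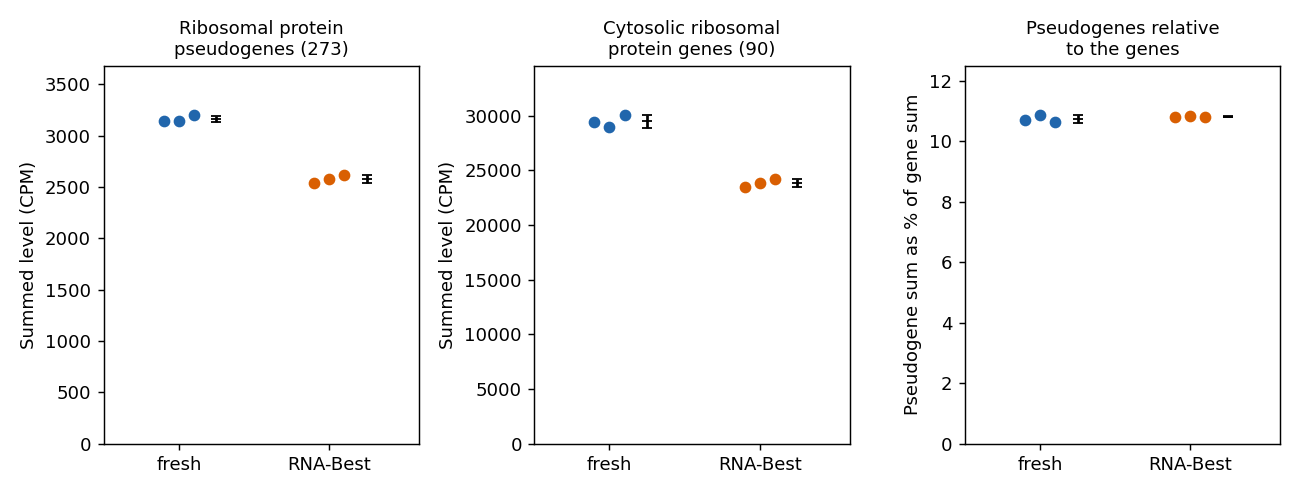
Summed level in CPM of the 273 pseudogenes (left) and of the 90 cytosolic ribosomal protein genes (middle), and the first sum as a percent of the second (right). Points are the 3 fresh and 3 RNA-Best libraries, and the black marks are the mean ± SD. Both sums were lower in RNA-Best, with ratios of 0.814 and 0.808, while the percent stayed between 10.6% and 10.9%.

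Single members were compared between RNA-Best and fresh with the quasi-likelihood test of edgeR over all genes, at a false discovery rate (FDR) of 5%. Of the 137 tested members, 87 were lower in RNA-Best, 1 was higher and 49 did not pass. In the background of 14736 tested genes, 24.8% were called lower, 26.0% were called higher and 50.8% were called in either direction. The members' median log2 fold change was -0.31 (interquartile range -0.40 to -0.23), and 132 of the 137 values were negative. The median was -0.01 over all tested genes. By CPM with TMM scaling, every RNA-Best library was below every fresh library in 106 members, as in 29.0% of all tested genes, and in 0 members every RNA-Best library was above, as in 29.0% of all tested genes.

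Other gene lists differed in how many of their genes were called. Of the 85 tested cytosolic ribosomal protein genes, 82 were lower and 1 was higher, with a median log2 fold change of -0.32. Of the 160 other tested pseudogenes with -ps in the symbol, 32 were lower and 25 higher, with a median of -0.05. Of the 1092 tested processed pseudogenes with a Gm number, 291 were lower and 80 higher, with a median of -0.16. Length moved with the change: of 1891 other tested genes in the length range of the members, 677 were lower and 136 higher, with a median of -0.21. With a loess offset for exonic length in each library, 22 members were lower and 2 higher, with a median log2 fold change of -0.08. Under the same offset 19.5% of all tested genes were lower and 18.7% higher, so that the 16.1% of members called lower did not exceed the background. The share of members called higher lay below the background. The median over all tested genes was -0.0026 with this offset, beside -0.08 in the members. The part of length in the members' change was not tested further. Of those 22, 5 were copies of Rps19, 3 of Rps15a and 3 of Rpl9.

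**Figure D3:**
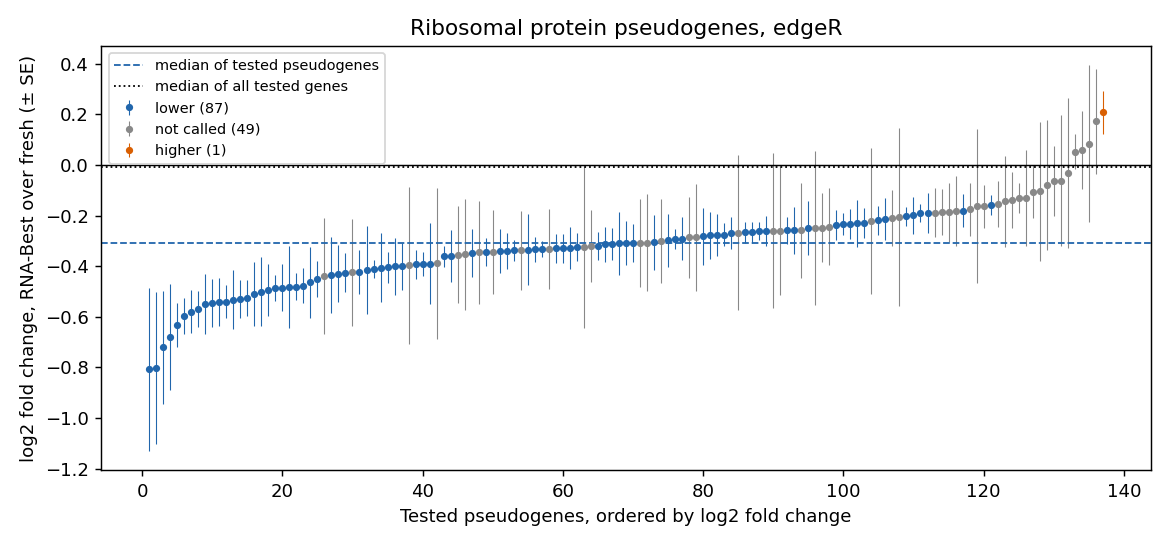
Log2 fold change of RNA-Best over fresh (edgeR, ± SE) for the 137 tested members in ascending order, coloured by the call at an FDR of 5%. The dashed line is their median of -0.31 and the dotted line the median of -0.01 over all tested genes. All but 5 members lie below 0.

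The large subunit had 84 tested members, of which 56 (66.7%) were lower, against 24.8% of all tested genes, and 1 was higher, with a median log2 fold change of -0.29. With the length offset 9 (10.7%) were lower, against 19.5% of all tested genes. The highest in CPM, not divided by length, was Rpl15-ps3, at chr9:22185607-22186221, with 182, 183 and 183 CPM in fresh and 143, 145 and 150.5 CPM in RNA-Best libraries. It fell by 0.33 ± 0.03 (SE) on the log2 scale (edgeR adjusted p = 1.72e-10). It is identical to Rpl15, a core protein of the large subunit. Rpl15-ps2, at chr9:72060937-72061549 and with an identity of 98.7%, had 77.9, 76.3 and 78.2 CPM in fresh and 59.6, 59.4 and 62.4 CPM in RNA-Best libraries (log2 fold change -0.36 ± 0.04, edgeR adjusted p = 8.27e-09). The 5 members of this family summed to 276 ± 0.884 CPM in fresh and 220 ± 6.28 CPM in RNA-Best libraries (SD, n = 3 each), which was 49.0% of the level of Rpl15 in either group.

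Rpl10a-ps1, at chr1:64993951-64994604 and identical to Rpl10a, had 141, 146 and 149 CPM in fresh and 110.45, 107 and 112 CPM in RNA-Best libraries. The change of -0.41 ± 0.04 on the log2 scale was the furthest from 0 among the 12 members of highest mean CPM (edgeR adjusted p = 8.89e-12), beside -0.29 ± 0.03 for Rpl10a. Rpl27-ps3, on chromosome 18 and identical to Rpl27, had 95.5, 97.97 and 104 CPM in fresh and 83.01, 81.2 and 82.8 CPM in RNA-Best libraries (log2 fold change -0.27 ± 0.04, edgeR adjusted p = 1.18e-06). The groups did not overlap in either gene. Rpl3-ps1 is a copy of the gene for RPL3, a protein close to the catalytic centre of the ribosome, and lies at chrX:13202571-13203780. It had 88.9, 90.8 and 90.1 CPM in fresh and 79.8, 81.2 and 82.5 CPM in RNA-Best libraries (log2 fold change -0.16 ± 0.04, edgeR adjusted p = 0.000867), the smallest change of the 12.

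Rpl19-ps11, at chr8:19492936-19493526, had 89.9, 87.7 and 88.3 CPM in fresh and 72.2, 74.6 and 73.1 CPM in RNA-Best libraries (log2 fold change -0.29 ± 0.04, edgeR adjusted p = 1.69e-07). An annotated RNA gene overlaps its exon on the same strand, so its count is uncertain. Rpl31-ps8, at chr15:90764279-90764656 and identical to Rpl31, which encodes a protein at the rim of the exit tunnel, had 80.2, 83.3 and 80.7 CPM in fresh and 64.2, 65.0 and 66.1 CPM in RNA-Best libraries. The change on the log2 scale was -0.34 ± 0.04 (edgeR adjusted p = 2.41e-08), beside -0.33 ± 0.03 for Rpl31. Among the 10 tested Rpl31 members 5 were lower, against 24.8% of all tested genes, and 1 with the length offset, and their log2 fold changes ran from -0.53 to 0.17. Rpl5-ps1, at chr1:14865072-14865965, is a copy of the gene for RPL5, which binds 5S ribosomal RNA. It had 67.3, 67.8 and 66.3 CPM in fresh and 55.8, 60.5 and 58.1 CPM in RNA-Best libraries (log2 fold change -0.23 ± 0.04, edgeR adjusted p = 3.56e-05). In all of these the RNA-Best libraries lay below the fresh ones.

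The small subunit had 53 tested members, of which 31 (58.5%) were lower, against 24.8% of all tested genes, and 0 higher, with a median log2 fold change of -0.32. With the length offset 13 (24.5%) were lower, against 19.5% of all tested genes. Rps10-ps2, at chr16:20822145-20822640, had 136, 136 and 138 CPM in fresh and 122, 122 and 119 CPM in RNA-Best libraries (log2 fold change -0.19 ± 0.03, edgeR adjusted p = 1.76e-05). Rps16-ps2 had 133, 132 and 138 CPM in fresh and 111, 117 and 112 CPM in RNA-Best libraries (log2 fold change -0.26 ± 0.04, edgeR adjusted p = 1.92e-07), beside -0.24 ± 0.03 for Rps16, with which it shares every window. Rps6-ps4, at chr2:75191073-75191822, is identical to the gene for RPS6, the small subunit protein that is phosphorylated when growth signals are active. It had 107, 103 and 108 CPM in fresh and 93.0, 92.7 and 92.1 CPM in RNA-Best libraries (log2 fold change -0.20 ± 0.04, edgeR adjusted p = 3.28e-05). Of the 12 members of highest mean CPM, all were called lower, and 3 remained so with the length offset: Rpl15-ps3, Rpl15-ps2 and Rpl10a-ps1. Under that offset the direction turned in Rps10-ps2 (0.042), Rpl3-ps1 (0.026) and Rps6-ps4 (0.0078).

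**Figure D4:**
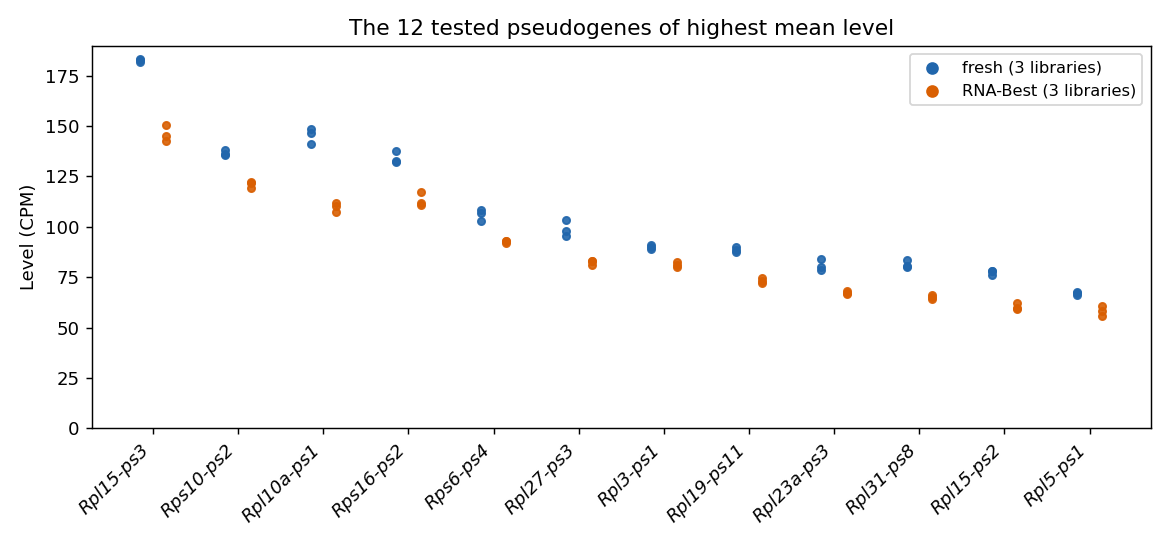
Level in CPM of the 12 tested members of highest mean level, with 1 point per library, 3 fresh (blue) and 3 RNA-Best (orange). In each of the 12 the RNA-Best libraries lie below the fresh ones, from Rpl15-ps3 at 143 to 183 CPM to Rpl5-ps1 at 55.8 to 67.8 CPM.

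The members that fell most were mostly of low level. Rpl34-ps2, at chr13:116153781-116154134, had 44.2, 52.9 and 20.6 counts in fresh and 4.65, 6.07 and 6.43 counts in RNA-Best libraries. In CPM these are 1.09, 1.11 and 1.42 against 0.530, 1.24 and 0.536, so that the groups overlapped through RNA-Best replicate 2. The log2 fold change was -0.81 ± 0.32 (edgeR adjusted p = 0.0406). Rpl35a-ps7 had 1.51, 1.24 and 2.19 CPM in fresh and 0.939, 1.01 and 0.780 CPM in RNA-Best libraries, without overlap (log2 fold change -0.80 ± 0.30, edgeR adjusted p = 0.0251). Both calls were lost in some leave-one-out fits: that of Rpl34-ps2 without fresh replicate 3, RNA-Best replicate 1 or RNA-Best replicate 3 (log2 fold changes -0.75, -0.71 and -0.53), and that of Rpl35a-ps7 without the same libraries (-0.68, -0.85 and -0.65). With the length offset both were lost as well, at -0.57 and -0.56, and with the DESeq2 Wald test (adjusted p = 0.167 and 0.0837). That of Rpl34-ps2 was also lost with limma-voom (adjusted p = 0.0545).

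Rpl13a-ps1, of which no window occurs elsewhere, had 2.58, 2.49 and 1.75 CPM in fresh and 1.37, 1.53 and 1.53 CPM in RNA-Best libraries. The change on the log2 scale was -0.72 ± 0.22 (edgeR adjusted p = 0.00728), and that of Rpl13a, whose protein also takes part in silencing inflammatory mRNAs, was -0.48 ± 0.03. Rpl21-ps6, at chr17:55915403-55915870, had 2.47, 2.38 and 2.34 CPM in fresh and 1.48, 1.51 and 1.61 CPM in RNA-Best libraries (log2 fold change -0.68 ± 0.21, edgeR adjusted p = 0.00941). The DESeq2 Wald test gave an adjusted p of 0.0981 for the former and of 0.0772 for the latter. Both calls were also lost with the length offset, with log2 fold changes of -0.50 and -0.45. These are copies with identities of 95.3% and 93.8%.

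The other members among the 6 that fell most had higher counts. Rps19-ps4, on chromosome 18, had 17.4, 16.8 and 17.9 CPM in fresh and 10.3, 12.5 and 11.4 CPM in RNA-Best libraries (log2 fold change -0.63 ± 0.09, edgeR adjusted p = 1.41e-07). Rps15a-ps6, at chr11:6172644-6173036, had 26.1, 27.5 and 26.8 CPM in fresh and 16.9, 17.6 and 18.9 CPM in RNA-Best libraries (log2 fold change -0.60 ± 0.07, edgeR adjusted p = 6.57e-09). Both were still lower with the length offset, by -0.40 and -0.36. In their families, the 8 tested copies of Rps19, a protein of small subunit maturation, had a median log2 fold change of -0.54 beside -0.39 for the parent, and the 6 tested copies of Rps15a one of -0.48 beside -0.33.

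Rpl14-ps1 was the one member called higher. It had 18.1, 15.5 and 16.03 CPM in fresh and 16.7, 21.5 and 20.5 CPM in RNA-Best libraries, so that RNA-Best replicate 1 lay within the fresh range. It was higher by 0.21 ± 0.09 on the log2 scale (edgeR adjusted p = 0.0415), beside -0.12 ± 0.03 for Rpl14, its only other match for whole windows. The call was lost without fresh replicate 2 or 3 and without RNA-Best replicate 2 or 3, with log2 fold changes of 0.13, 0.20, 0.17 and 0.14. It was also lost with the DESeq2 Wald test (adjusted p = 0.109) and with a replicate block. With no filter and after thinning it was lost too, at log2 fold changes of 0.16 and 0.25. With the length offset the log2 fold change was 0.42 (edgeR adjusted p = 0.000153). Among the members called lower, the log2 fold changes closest to 0 were those of Rpl3-ps1, Rpsa-ps2, Rps13-ps1, Rps10-ps2 and Rpl13-ps6. Rpsa-ps2, at chr10:128776371-128777250, is a copy of the laminin receptor gene Rpsa. It had 27.5, 27.98 and 26.4 CPM in fresh and 22.7, 26.6 and 25.03 CPM in RNA-Best libraries (log2 fold change -0.18 ± 0.06, edgeR adjusted p = 0.0194), where the groups overlapped before TMM scaling and not after it. Rps13-ps1, at chr8:87047689-87048226, had 18.4, 16.9 and 18.3 CPM in fresh and 16.5, 14.5 and 15.7 CPM in RNA-Best libraries (log2 fold change -0.19 ± 0.08, edgeR adjusted p = 0.0453). Rpl13-ps6, at chr3:58987170-58987805, had 21.3, 20.9 and 23.1 CPM in fresh and 18.8, 16.97 and 19.7 CPM in RNA-Best libraries (log2 fold change -0.20 ± 0.07, edgeR adjusted p = 0.0225). These 3 calls were lost with the length offset, where the direction turned (0.021, 0.037 and 0.019), and in some leave-one-out fits. That of Rpsa-ps2 was lost without fresh replicate 2 or RNA-Best replicate 1 (log2 fold changes -0.16 and -0.12), and that of Rpl13-ps6 without RNA-Best replicate 1 or 2 (-0.20 and -0.16). That of Rps13-ps1 was lost without any one library but fresh replicate 2, with log2 fold changes from -0.22 to -0.15. The DESeq2 Wald test (adjusted p = 0.114, 0.145 and 0.0755 for Rpsa-ps2, Rps13-ps1 and Rpl13-ps6) and thinning also lost all 3. The GC offset lost those of Rpsa-ps2 and Rpl13-ps6 (-0.095 and -0.089), and limma-voom and a minimum of 1 CPM in every library lost that of Rps13-ps1 (-0.18 and -0.19).

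Of the 49 members not called, 4 had a log2 fold change above 0: Rpl31-ps4 at 0.17 ± 0.21, Rpl27a-ps1 at 0.08 ± 0.31, Rplp0-ps1 at 0.06 ± 0.15 and Rpl3-ps2 at 0.05 ± 0.07. Rplp0-ps1 is a copy of the gene for the base of the ribosomal stalk. With the length offset Rpl3-ps2 was called higher, at 0.24 (edgeR adjusted p = 0.00634). In leave-one-out fits the direction turned in Rpl27a-ps1 (-0.14 to 0.31) and Rplp0-ps1 (-0.019 to 0.14).

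Members and parents were then set side by side. The log2 fold change of a tested member minus that of its parent had a median of -0.03 (interquartile range -0.10 to 0.05) and was negative in 82 of 137. The Spearman correlation of the log2 fold changes was 0.43 over 137 members, which share libraries, parents and, in many cases, reads, and is given as a description only. The correlation of the members' log2 fold change with exonic length was 0.18, with GC content 0.07, and with the share of windows found elsewhere -0.02. The 14 tested members without any window elsewhere had a median log2 fold change of -0.28 and 3 were lower, or 21.4%, which is near the 24.8% of all tested genes. The 66 with up to 50% of windows elsewhere had a median of -0.33 and 37 were lower (56.1%), and the 57 with more had a median of -0.31, with 47 lower (82.5%) and 1 higher. The median level of these classes differed, at 2.71, 12.7 and 48.9 CPM per kb.

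**Figure D5:**
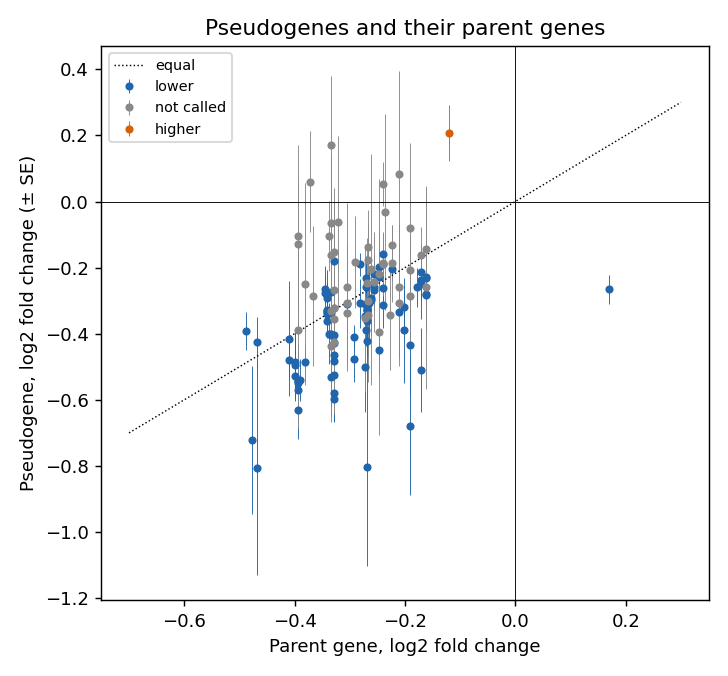
Log2 fold change of RNA-Best over fresh for each tested member (vertical, edgeR, ± SE) against that of its parent gene (horizontal), coloured by the member's call, with the line of equal values dotted. The 137 members lie around the line, with a median difference of -0.03. Rpl14-ps1 lies above 0 and the copy of Rpl23a far right of the rest.

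Of the 14 tested members without a window elsewhere, Rpl39-ps was the highest, at 245 CPM per kb, beside 99.9 for Rpl39. It had 44.1, 40.3 and 40.6 CPM in fresh and 32.0, 33.1 and 31.9 CPM in RNA-Best libraries (log2 fold change -0.39 ± 0.06, edgeR adjusted p = 6.10e-07), and still held parts of counts in all 6 libraries. Rpl36-ps3, at chr12:12912022-12912336, had 9.66, 9.84 and 10.0 CPM in fresh and 8.24, 6.97 and 7.68 CPM in RNA-Best libraries (log2 fold change -0.36 ± 0.10, edgeR adjusted p = 0.00393). Both calls were lost with the length offset, with log2 fold changes of -0.12 and -0.11. That of Rpl36-ps3 was also lost with a GC offset (-0.23) and after thinning (-0.35).

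In 16 tested members the level per kb was above that of the parent, by 1.10 to 3.83 times. All 16 were lower in RNA-Best, against 24.8% of all tested genes, and 3 of them with the length offset. Of these, 15 had an identity of at least 98% and the last was Rpl36a-ps3. The exonic length of a parent counts all of its annotated transcripts, which lowers its level per kb. Rpl23a-ps3, at chr14:34170655-34171122, had the highest ratio, with 158 CPM per kb beside 41.3 for Rpl23a, the gene for a protein that contacts the signal recognition particle. It had 78.6, 79.9 and 84.0 CPM in fresh and 66.7, 67.3 and 68.1 CPM in RNA-Best libraries (log2 fold change -0.27 ± 0.04, edgeR adjusted p = 2.59e-06). Rpl23a itself had 33.1, 35.4 and 27.9 CPM in fresh and 35.1, 39.5 and 38.7 CPM in RNA-Best libraries, with a log2 fold change of 0.17 ± 0.07 (edgeR adjusted p = 0.0348). The log2 ratio of the member to the parent was 1.25, 1.17 and 1.59 in fresh and 0.92, 0.77 and 0.81 in RNA-Best libraries, without overlap.

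Of the 59 families with a parent in the table, 53 had a sum of more than 3 counts in at least 1 library. In 45 of these the sum was lower in every RNA-Best than in every fresh library. The same held, after TMM scaling, for 29.0% of all single genes tested. The sums were not TMM-scaled and many join several members, so the shares are not of the same kind. No length offset was applied to the sums. The 21 Rpl31 members summed to 186 ± 2.56 CPM in fresh and 152 ± 4.38 CPM in RNA-Best libraries (SD, n = 3 each), or 57.1% and 58.1% of the parent. The 6 Rpl35a members summed to 181 ± 8.61 and 143 ± 0.557 CPM (SD, n = 3 each), or 109% and 102% of the parent. All 6 were called lower, against 24.8% of all tested genes, and 0 of them with the length offset. The 14 Rpl23a members summed to 81.4 ± 2.68 and 67.9 ± 0.770 CPM (SD, n = 3 each), or 256% and 180.0% of the parent. These 2 families were the only ones of the 59 in which the sum of the copies exceeded the parent in fresh libraries.

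Of the members that did not pass the filter, the 3 of highest mean CPM had no more than 7.83 counts in any RNA-Best library. Rps24-ps2 had 27, 27.2 and 7.50 counts in fresh and 5.90, 7.83 and 5.92 counts in RNA-Best libraries. Rps2-ps5 had 30.6, 34.8 and 8.81 counts in fresh and 3.48, 4.36 and 7.62 counts in RNA-Best libraries, and Rpl12-ps1 had 32.3, 41.8 and 8.67 against 5.17, 2.33 and 6.58 counts. In CPM the groups overlapped for Rps24-ps2 and Rps2-ps5, while for Rpl12-ps1 the fresh libraries lay at 0.599 to 0.882 and the RNA-Best libraries at 0.475 to 0.589. No test was made of these members.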

How the data were processed

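RNA was extracted from the 6 samples, polyadenylated RNA was made into libraries with the Illumina Truseq LT mRNA kit, and single reads of 101 bases were sequenced. Per the labels and the methods of the study, the authors aligned them to GRCm38 (mm10) with STAR 2.5.1b and counted them per gene of GENCODE M8 with featureCounts 1.5.0-p1. What the authors deposited is 1 estimated count per gene and library, before any scaling. The setting that divided reads between genes is not given in the sources used here. The methods of the study do not say whether strand was used in counting. Counts of near-identical copies, and of genes that share bases on either strand, are uncertain for these reasons.

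Symbols, types, positions, lengths and transcript sequences came from GENCODE M21 on GRCm38, which is later than the release of the authors. It matched 46488 of the 47069 genes and all 273 members. Members were aligned with blastn 2.17.0+ to the parent gene, the symbol without -ps and what follows. A genome sequence was not used here, so copies outside annotated transcripts were not looked up.

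Counts were rounded to whole numbers and tested with edgeR 4.0.16 in R 4.3.3 (quasi-likelihood F test), using TMM scaling (factors 0.994 to 1.01), filterByExpr at a minimum count of 10 and Benjamini-Hochberg adjustment over all tested genes. Fold changes are fitted values. The SE given with edgeR values is the absolute log2 fold change divided by the square root of the F statistic. CPM are deposited counts over the library total. TMM factors enter where single genes whose groups do not overlap are counted, but not for sums over members or ratios to the parent. The alternatives were limma 3.58.1 with voom, DESeq2 1.42.0, other scaling, filters and rounding, thinning, offsets for length or GC content (loess, span 0.5), a replicate block and leaving out each library. When RNA-Best against fresh was simulated over 14610 genes, edgeR called 32 of 48 genes changed 1.2-fold, 49 of 49 changed 4-fold and 10 of 14413 unchanged genes. The simulation gave every gene the same small spread beyond counting error. That spread was not taken from these libraries, so the shares called need not hold for them.

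The members and the gene lists were chosen with earlier results of these data known. Values per library are given for the 12 tested members of highest mean CPM, for the called members with the 6 lowest and the 6 highest log2 fold changes, and for the 3 untested members of highest mean CPM. A further part of that rule, tested members without parts of counts, named none. Other members were chosen after their values were seen.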

Additional observations from a re-analysis of the deposited data

How the results depend on the processing

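The 88 called members and the 7479 called genes of the whole table stayed within 1.5 times under DESeq2 size factors, the DESeq2 Wald test (64 members), limma-voom, both other filters, rounding down, thinning, the GC offset and the leave-one-out fits (68 to 85 members, 6357 to 7273 genes). With the length offset 24 members were called (22 lower, 2 higher) at a median log2 fold change of -0.080, and with replicate block and length offset 25 (22 lower, 3 higher) at -0.086; in each, 23 were among the 88. The median was -0.36 with no filter, and -0.35 to -0.29 in the leave-one-out fits. Same-numbered libraries did not deviate together over all tested genes (correlations -0.0084, 0.0121 and -0.0077). Noise of low counts enters these values, so they cannot show whether the numbers pair libraries. With the replicate block alone 85 members were called, all of them lower, and the median was -0.32. The call of Rpl14-ps1 was then lost (edgeR adjusted p = 0.0842). The ratio of summed levels was 0.808 to 0.820 in the leave-one-out fits.

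The difference in members with at least 1 count, RNA-Best minus fresh, was -31, and -39 to -23 in the leave-one-out fits, which were chosen after seeing the data. It was -3.67 after thinning, -6 at 0.5 CPM and -2.67 at 1 CPM. The share of member values with a part of a count was 71.6%, from 70.0% to 73.0% in the leave-one-out fits, and 96.7% for values of at least 10 counts.

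Of 570 values of 34 named members under the alternatives, 476 kept direction and call, 71 lost the call, 4 gained one and 19 turned. The direction turned with the length offset in Rpl18-ps1 (0.12), Rpl3-ps1 (0.026), Rps10-ps2 (0.042), Rps13-ps1 (0.037), Rpsa-ps2 (0.021), Rpl13-ps6 (0.019) and Rps6-ps4 (0.0078), and with replicate block and length offset in Rpl18-ps1 (0.14), Rpl3-ps1 (0.029), Rps10-ps2 (0.046), Rps13-ps1 (0.018), Rpsa-ps2 (0.040) and Rps6-ps4 (0.0021). In Rpl27a-ps1 it turned when rounded down (-0.089), with the replicate block (-0.024) and in leave-one-out fits (-0.14 to 0.31), and in Rplp0-ps1 when thinned (-0.40) and in leave-one-out fits (-0.019 to 0.14). The cause of these changes was not tested. With 4909418 counts in the shallowest library, 1 count is 0.204 CPM, which limits the precision of members near that level.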
